A study of Danio rerio with 18 samples.

Results

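The 6 libraries described here, of 18 in the series, are ventricles of adult zebrafish in which the epicardial transcription factor gene tcf21 was deleted: 3 were made from uninjured hearts (day 0) and 3 from hearts taken 3 days after cryoinjury, an injury made with a probe cooled in liquid nitrogen. They were chosen by their labelled genotype, treatment and time. All fish of the series, controls included, carried the floxed allele tcf21vln18/vln18, the inducible recombinase Tg(ubbR:CreERT2*)vln2 and the red reporter TgBAC(tcf21:DsRed2)pd37. Conditional knock-out (cKO) fish received 3 baths of 24 h in 5 µM 4-hydroxytamoxifen, the drug that activates the recombinase, and procedures began 12 days after the first bath. Another cKO group of 3 libraries came from hearts that were exposed but not injured (sham, day 3). The control arm has the same 3 groups and, per the labels, no 4-hydroxytamoxifen, so drug and deletion cannot be told apart between the arms. Because uninjured hearts were taken at day 0, cryoinjury here also comes with 3 more days since the baths. The recombinase is driven by a ubiquitous promoter, so deletion was not limited to the epicardium. Each library pooled 2 to 3 ventricles. The labels do not say which fish were handled together, so p-values measure the spread between these libraries.

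The zebrafish heart replaces muscle lost to cryoinjury. In the first days the epicardium, the sheet of cells around the heart, switches on embryonic genes and divides, immune cells enter the wound, and fibroblasts and epicardial cells lay down a temporary matrix of fibronectin, hyaluronan and collagen. Cardiomyocytes near the wound lower genes of the mature contractile and energy-producing machinery and re-enter the cell cycle. Tcf21 is a basic helix-loop-helix factor of epicardial cells and of the fibroblasts that descend from them.

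The 6 libraries held 124919844 to 169092543 estimated counts over 25107 genes and came from 1 sequencing lane. Genes with at least 1 count numbered 18071 to 19548 in uninjured and 20485 to 20784 in cryoinjured ventricles, without overlap (exact permutation test, two-sided, p = 0.1, the smallest that 3 against 3 libraries allow). Mitochondrial genes took 16.1% to 21.6% of the counts of uninjured and 13.9% to 17.6% of cryoinjured libraries (exact p = 0.2). Uninjured replicates were less alike than cryoinjured ones, with a biological coefficient of variation, the replicate spread beyond counting, of 0.575 against 0.272. Markers of ventricular muscle summed to 58019.5 to 71540.6 CPM (counts scaled to a common library size) in uninjured and 41201 to 51693.4 CPM in cryoinjured ventricles, against 31.6 to 49.6 and 41.6 to 169 CPM for 2 atrial markers, as the label ventricle requires. Bulbus arteriosus markers summed to 1.04 to 2.57 CPM in uninjured and 4.06 to 12.7 CPM in cryoinjured libraries. Liver markers summed to 62.5 to 129.6 CPM and 352 to 504 CPM, with tfa called higher and fabp10a at 0.

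The deleted gene itself, tcf21 (ENSDARG00000036869, GRCz11 chr23:31554269-31555696), was at 0.411, 0.820 and 0.891 CPM in the uninjured cKO libraries (replicates 1, 2 and 3) and at 0.895, 0.895 and 0.682 CPM after cryoinjury. The groups overlapped, and the log2 fold change of 0.22 did not pass the test (SE 0.26, adjusted p = 0.656). In the control arm tcf21 was at 7.35, 6.28 and 10.6 CPM uninjured and at 14.7, 14.9 and 15.2 CPM after cryoinjury. All 6 cKO libraries therefore lay below all 6 control libraries, as their labels state. Unless another test is named, each adjusted p comes from edgeR's quasi-likelihood test with Benjamini-Hochberg adjustment over all genes tested, two-sided.

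Between uninjured and cryoinjured cKO ventricles 2171 of 20462 genes tested differed, which is 10.6% (adjusted p under 0.05). Of these, 1415 rose (6.92% of genes tested) and 756 fell (3.69%). Increases were the larger: 460 of the genes that rose and 34 of those that fell changed by more than 2 on the log2 scale, and the median log2 fold change was 1.5 among genes that rose and -0.76 among those that fell, against 0.03 over all genes. For 2141 of the 2171 genes the 3 cryoinjured and 3 uninjured libraries did not overlap, where 34.2% of all genes tested showed no overlap. Lack of overlap, where stated below for called genes, therefore adds little to the call. Leaving out cryoinjury replicate 2, cryoinjury replicate 3 or uninjured replicate 2 lowered the number of changed genes to 930, 1181 or 1259.

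Among the 12 largest increases (mean of at least 5 CPM) were 2 collagen XI genes, a collagen XII gene, genes of matrix turnover and the epicardial factor gene wt1b. The largest was ankrd1a (ENSDARG00000075263, chr17:23462972-23472265), which encodes a muscle ankyrin repeat protein induced in stressed cardiomyocytes. It was at 0.117, 0.185 and 0 CPM in uninjured and at 16.4, 31.3 and 15.4 CPM in cryoinjured ventricles. The log2 fold change was thus 7.72 with an SE of 0.81 (adjusted p = 3.06e-05), and its sham level of 0.604 to 1.27 CPM lay between the groups. The related gene ankrd1b, read per length because levels of 2 genes are compared, stayed between 0.0476 and 0.262 TPM, a level scaled for transcript length, across the 6 libraries, where ankrd1a reached 12.8 to 28.6 TPM after cryoinjury.

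The next largest increase was that of cd9b, a tetraspanin membrane protein gene, at 0.690, 0 and 0.109 CPM before and 19.1, 37.9 and 18.6 CPM after injury (log2 fold change 6.53, SE 1.06, adjusted p = 0.00122). Apolipoprotein E gene apoeb (ENSDARG00000040295, chr16:23960744-23963461), whose product carries lipid between cells, stood at 0.969, 1.12 and 2.73 CPM in uninjured and at 73.6, 144 and 119 CPM in cryoinjured ventricles. Its log2 fold change was 6.13 (SE 0.78, adjusted p = 0.000172). The secreted matrix protein gene adamtsl7 was at 0.228, 0.229 and 0.250 CPM in uninjured and at 13.1, 10.5 and 9.09 CPM in cryoinjured ventricles (log2 fold change 5.53, SE 0.43, adjusted p = 1.29e-06). Other members were angptl2a (angiopoietin-like protein), adam8a (membrane metalloprotease), myof (myoferlin, a membrane repair protein), col11a1b, col11a1a, col12a1a and wt1b, with log2 fold changes of 4.11 to 6.31. Uninjured and cryoinjured libraries did not overlap in these genes, by the rule that chose them.

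The 12 largest decreases had a different look across replicates. Rorcb (ENSDARG00000017780, chr2:49417900-49454451), a nuclear receptor gene of the ROR family that acts in the circadian clock, was at 37.6, 89.1 and 234 CPM in uninjured and at 2.05, 2.75 and 1.57 CPM in cryoinjured ventricles. The clock output repressor gene nfil3-5 went from 33.0, 124 and 257 CPM to 4.97, 6.51 and 6.09 CPM. Log2 fold changes were -5.82 (SE 0.95, adjusted p = 0.00125) for rorcb and -4.56 (SE 0.81, adjusted p = 0.00246) for nfil3-5. In all 12 genes uninjured replicate 3 was the highest and uninjured replicate 1 the lowest of its group. Over all genes tested, replicate 3 was highest in 36.7% and replicate 1 lowest in 33.0%. Among all genes called lower these shares were 56.3% and 50.4%. The 12 also included bmal1b, a core clock activator, and the muscle genes asb15b, trim55a (a muscle ubiquitin ligase) and akap6 (which anchors protein kinase A at the nuclear envelope of muscle cells). Trim55a stood at 24.6, 42.8 and 57.7 CPM before and 8.0, 5.17 and 7.10 CPM after injury (log2 fold change -2.63, SE 0.52, adjusted p = 0.00487). The remaining members were slc14a2, adam19b, nsmfb, psme4a, klf11b and fzd10, with log2 fold changes of -3.47 to -2.53. Calls of adam19b, nsmfb and psme4a were lost in 3, 5 and 4 of 6 fits, each without 1 library.

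**Figure D1:**
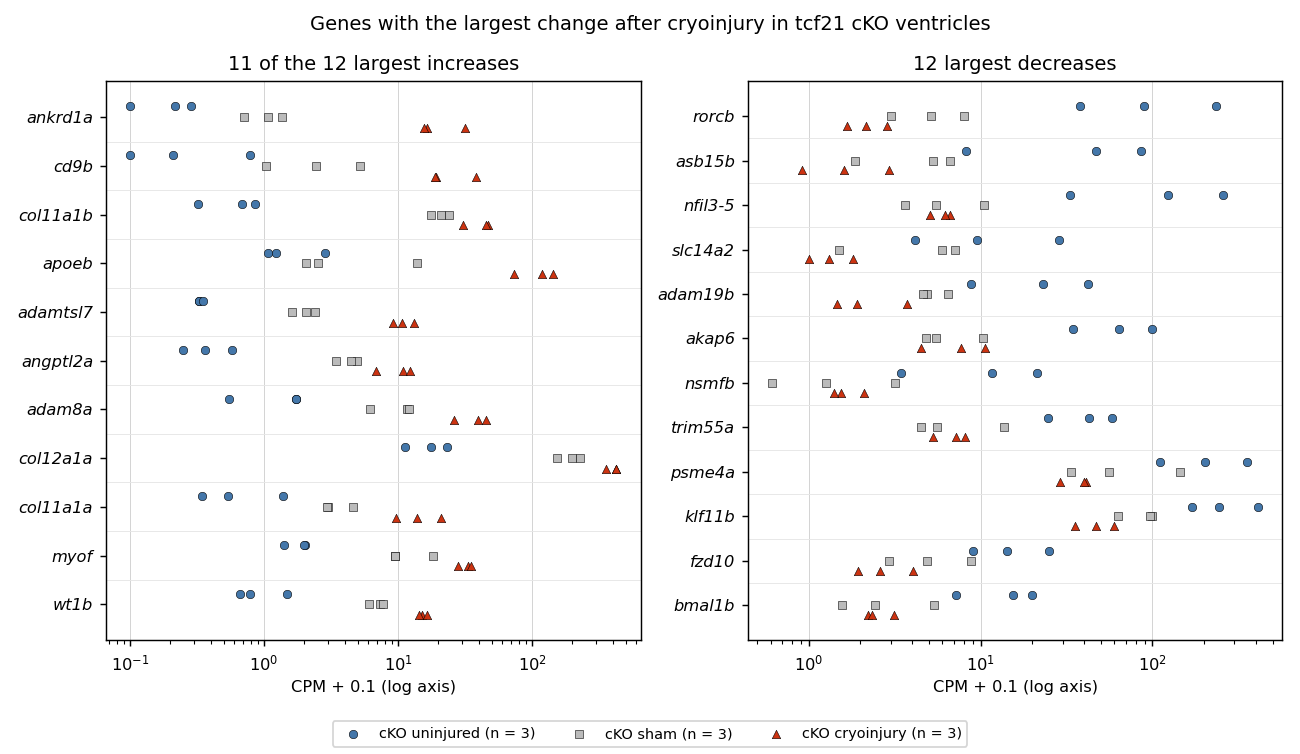
Levels of 11 of the 12 genes with the largest increase (left) and of the 12 with the largest decrease (right), in CPM plus 0.1 on a log axis, one symbol per library for uninjured, sham and cryoinjured cKO ventricles. For the increases the sham libraries mostly lie between the other groups, as ankrd1a does with 0.604 to 1.27 CPM, while for most of the decreases they lie near or among the cryoinjured libraries, as rorcb does with 2.91 to 7.95 CPM.

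Set against sham ventricles, which share the cryoinjured libraries with the comparison above and so are given only side by side, 298 genes were called, 1.46% of those tested, with 242 higher and 56 lower after cryoinjury. Among the 12 largest increases the log2 fold change against sham was 4.47 for ankrd1a (adjusted p = 0.00728), 4.21 for apoeb (adjusted p = 0.0126), 2.5 for adamtsl7 (adjusted p = 0.00684) and 1.37 for myof (adjusted p = 0.0353). For col11a1b it was 0.98 (adjusted p = 0.392) and for wt1b 1.13 (adjusted p = 0.176), with sham at 17.5 to 23.9 CPM of col11a1b and 5.96 to 7.64 CPM of wt1b. For the 12 largest decreases the adjusted p against sham was 0.181 or more, the lowest being that of slc14a2. Rorcb was at 7.95, 5.04 and 2.91 CPM and nfil3-5 at 10.4, 5.41 and 3.51 CPM in sham libraries, with log2 fold changes of cryoinjury against sham of -1.32 (adjusted p = 0.47) and -0.14 (adjusted p = 0.967). The count of 298 fell to 18 without cryoinjury replicate 2.

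In absolute amount, the largest gains were those of krt8, a keratin of the epicardial sheet, col1a1a and col1a1b, the alpha 1 chains of collagen I, and fn1b, a fibronectin. Krt8 was at 774, 958 and 1360 CPM uninjured and at 2301, 3294 and 3081 CPM after cryoinjury (log2 fold change 1.49, SE 0.19, adjusted p = 0.000105). The largest losses were those of slc25a5, the mitochondrial ADP/ATP exchanger, the cardiac actin gene actc1a, the glycolytic enzyme gene gapdh and atp2a2a, the calcium pump of the sarcoplasmic reticulum. Slc25a5 fell from 18638, 20676 and 21377 CPM to 10980, 8836 and 11207 CPM (log2 fold change -0.97, SE 0.20, adjusted p = 0.00543). Cryoinjured libraries lay below uninjured ones in all 4 losses, by the rule that chose them.

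**Figure D2:**
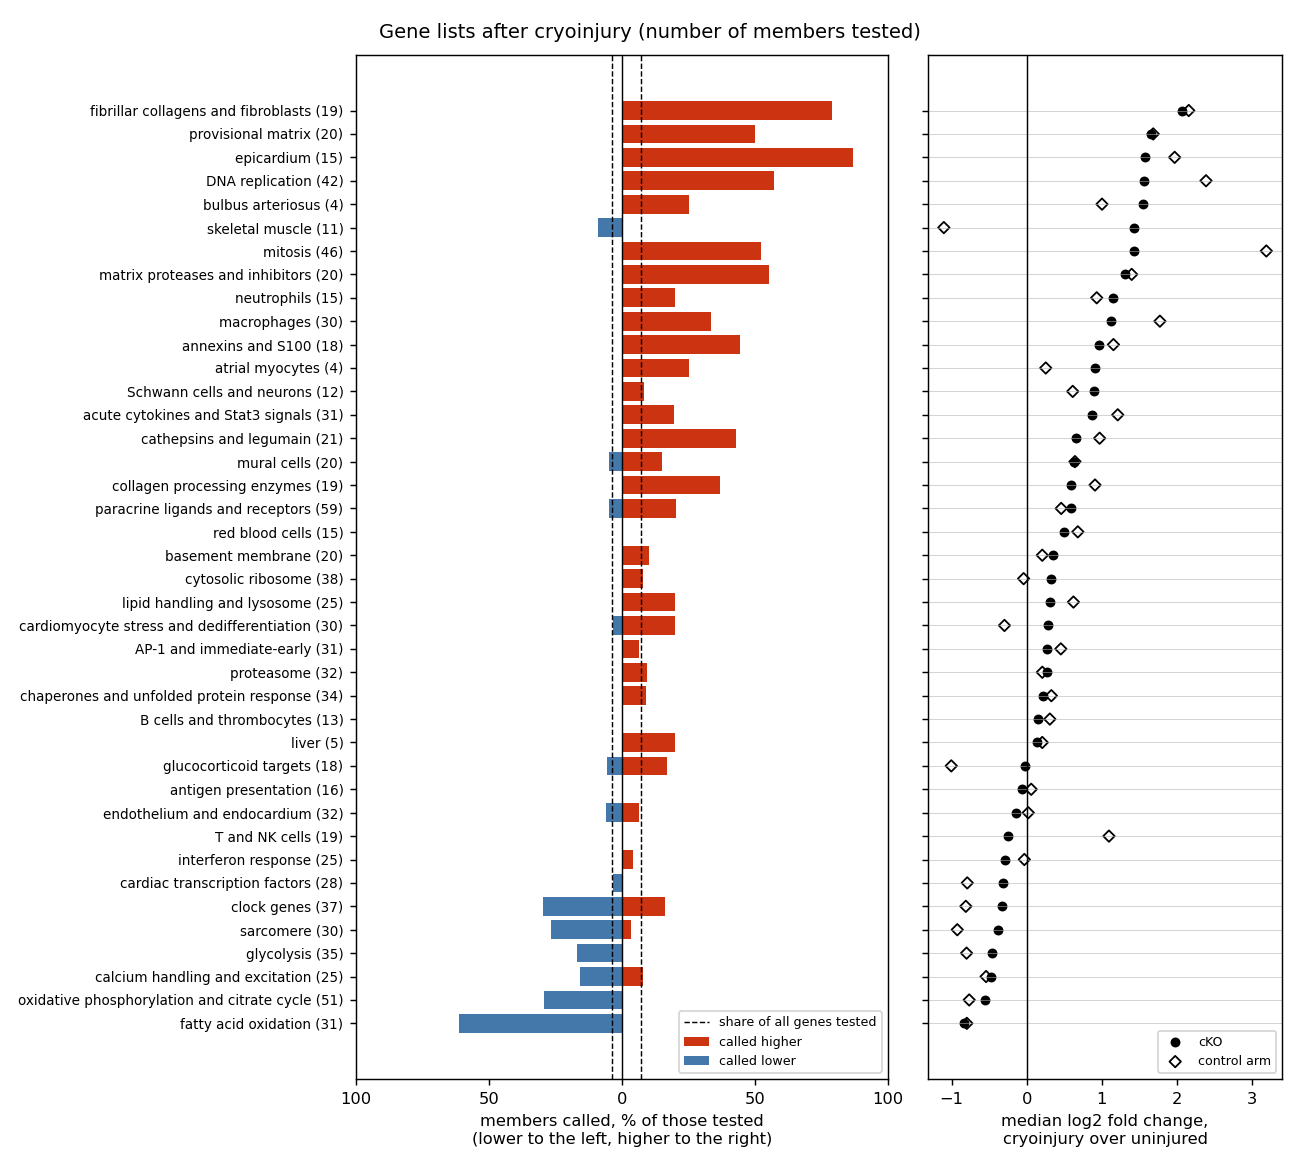
Left, percent of the tested members of each of 40 gene lists that were called higher (to the right) or lower (to the left) after cryoinjury in cKO ventricles, with dashed lines at the share of all genes tested (6.92% and 3.69%). Right, median log2 fold change of each list in cKO (filled) and in the control arm (open). Lists are ordered by the cKO median, from 2.08 for fibrillar collagens and fibroblasts to -0.83 for fatty acid oxidation. The highest shares were 13 of 15 epicardial genes called higher and 19 of 31 fatty acid oxidation genes called lower.

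Epicardial genes formed the list with the highest share of increases, 13 of 15 tested members (86.7%, against 6.92% of all genes). None fell, and the median log2 fold change was 1.58. Wt1b, a zinc finger factor gene of activated epicardium (ENSDARG00000007990), was at 0.683, 0.564 and 1.39 CPM uninjured and at 15.1, 16.3 and 14.3 CPM after injury (log2 fold change 4.11, SE 0.46, adjusted p = 3.5e-05). Its relative wt1a reached 6.56, 5.36 and 3.81 CPM from 0.719, 1.59 and 0.219 CPM (log2 fold change 2.64, SE 0.51, adjusted p = 0.00345). Among mesothelial keratins, krt4 went from 91.9, 96.9 and 62.9 CPM to 485, 608 and 628 CPM (log2 fold change 2.77, SE 0.25, adjusted p = 5.63e-06). Krt18a.1 went from 159, 113 and 101 CPM to 568, 895 and 672 CPM (log2 fold change 2.52, SE 0.31, adjusted p = 7.99e-05). These 4 genes had no overlap between groups, like nearly all called genes. Of the remaining markers that define the layer, aldh1a2, which makes retinoic acid, rose by 1.65 (SE 0.22, adjusted p = 0.0002) and the T-box factor gene tbx18 by 1.36 (SE 0.32, adjusted p = 0.0121) on the log2 scale, both named after their values were seen. The 4 defining markers, tcf21 included, summed to 77.4 to 90.8 CPM uninjured, 108 to 183 CPM after sham and 244 to 319 CPM after cryoinjury. In bulk tissue more cells of a type and more RNA per cell cannot be told apart, here or in any list below.

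Genes of fibrillar collagens and fibroblasts showed the highest median of the lists, 2.08 on the log2 scale. Of 19 tested members 15 rose (78.9%, against 6.92% of all genes) and none fell. Col11a1b (ENSDARG00000009014, chr2:15389193-15563194), a chain of the collagen that seeds thin fibrils, went from 0.22, 0.749 and 0.579 CPM to 46.4, 45.3 and 30.5 CPM (log2 fold change 6.31, SE 0.66, adjusted p = 3e-05). Its partner col11a1a went from 0.440, 0.247 and 1.27 CPM to 20.7, 13.8 and 9.61 CPM (log2 fold change 4.48, SE 0.67, adjusted p = 0.000637). The fibril-associated collagen gene col12a1a (ENSDARG00000078322, chr17:49785495-49978986) was far more abundant, at 23.1, 17.5 and 11.2 CPM before and 420.1, 424 and 358 CPM after injury. Its log2 fold change of 4.54 had an SE of 0.34 (adjusted p = 1.16e-06). Lumican, a small proteoglycan that spaces collagen fibrils, is encoded by lum, which was at 3.02, 3.49 and 2.23 CPM and then at 35.11, 34.2 and 29.2 CPM (log2 fold change 3.49, SE 0.44, adjusted p = 0.000131). All 4 genes had intermediate sham levels, for example 198, 227 and 153 CPM of col12a1a. Those of lum, at 28.5, 26.3 and 23.8 CPM, lay close to the cryoinjured libraries (log2 fold change against sham 0.33, adjusted p = 0.784). Against sham edgeR called 0 of the 19 members, near the 1.46% of all genes tested. At an unadjusted p under 0.05 by edgeR there were 9, against 3184 of all 20462 genes, and DESeq2 called 4.

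The main collagen I chains rose less in ratio and more in amount. Col1a1a was at 584, 532 and 292 CPM uninjured and at 2241, 2426 and 2030 CPM after cryoinjury (log2 fold change 2.25, SE 0.29, adjusted p = 0.000134). Col1a1b was at 619, 553 and 315 CPM and then at 2171, 2316 and 1969 CPM (log2 fold change 2.12, SE 0.32, adjusted p = 0.000481). Per length the pair was shared almost evenly, col1a1a making up 47.3% to 48.2% of the summed TPM in uninjured and 49.97% to 50.4% in cryoinjured libraries.

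Provisional matrix, the early scaffold of fibronectin, hyaluronan and matricellular proteins, rose in 10 of 20 tested members. This was 50%, against 6.92% of all genes, and the list median was 1.65. Hyaluronan synthase gene has1 (ENSDARG00000042983) went from 0.228, 0.141 and 0 CPM to 9.49, 10.5 and 3.85 CPM (log2 fold change 6.0, SE 0.84, adjusted p = 0.000363). The matricellular gene ccn2b went from 0.250, 0 and 0.0782 CPM to 2.12, 4.23 and 2.81 CPM (log2 fold change 4.77, SE 0.86, adjusted p = 0.00213). Periostin, which ties collagen to cells, is encoded by postnb (ENSDARG00000104267, chr15:32710094-32741733), at 36.3, 26.3 and 25.6 CPM uninjured and 398, 464 and 402 CPM after injury (log2 fold change 3.84, SE 0.29, adjusted p = 1.16e-06). Fibronectin gene fn1a (ENSDARG00000019815, chr9:15362300-15424639) was at 73.9, 53.2 and 62.8 CPM and then at 874, 942 and 699.8 CPM (log2 fold change 3.73, SE 0.27, adjusted p = 1.12e-06). Both stood clear of every uninjured library, though nearly all called genes showed no overlap. In 1 of the pair of tenascin C genes that carry the symbol TNC, ENSDARG00000021948, the log2 fold change was 2.73 (SE 0.41, adjusted p = 0.000549). The other, ENSDARG00000078362, was at 0.0701 to 0.230 CPM after injury and did not pass the test.

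Some pairs of related genes shifted unequally and others did not, read here as TPM, a level per transcript length. The pairs were chosen after their values were seen. Uninjured ventricles held 32.5, 37.1 and 43.4 TPM of timp2a, a metalloproteinase inhibitor, and 6.12, 4.70 and 4.82 TPM of timp2b. After cryoinjury timp2a was at 70.9, 73.4 and 69.1 TPM and timp2b at 93.7, 84.3 and 57.2 TPM. The share of timp2b in the pair thus moved from 10.0% to 15.9% up to 45.3% to 56.9%. In the lysyl oxidase pair loxl2a held 36.9% to 64.4% before and 63.1% to 74.9% after injury, with loxl2b the rest and with overlap. Serpinh1b held 18.4% to 45.2% and then 39.5% to 62.3% of its pair with serpinh1a, also with overlap. For the hyaluronan synthases, has1 held 0% to 33.9% of the pair before and 65.5% to 78.1% after injury, with has2 the rest. Before injury both were near the floor, has1 at 0.160, 0.111 and 0 TPM and has2 at 0.313, 0.545 and 0.357 TPM. Shares of that pair before injury are therefore unsure. After injury has1 was at 8.91, 9.33 and 3.12 TPM and has2 at 3.12, 2.61 and 1.64 TPM. Fn1b was the larger fibronectin throughout, at 29.5 to 33.8 TPM and then 228 to 322 TPM, against 8.02 to 10.2 TPM and then 111 to 164 TPM of fn1a. In the troponin C pair, tnnc1a held 99.8% to 99.9% of the TPM before and 98.2% to 99.5% after injury. Reads that fit both members of a pair cannot be placed by these values, so the shares carry that uncertainty.

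**Figure D3:**
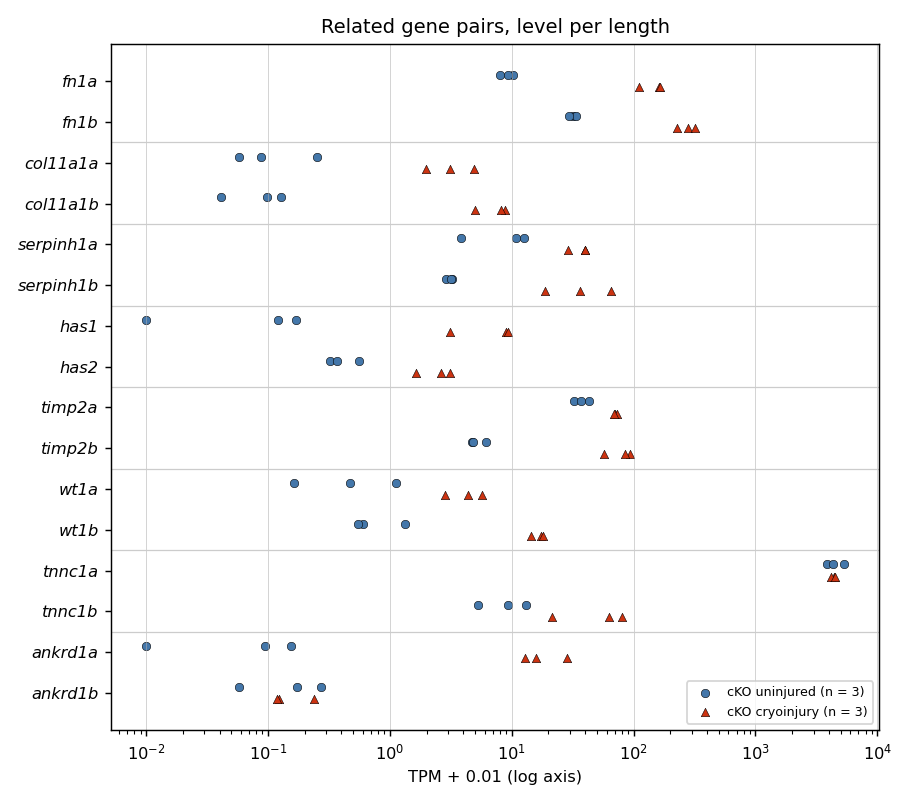
Levels per transcript length of 8 pairs of related genes, in TPM plus 0.01 on a log axis, one symbol per library of uninjured and cryoinjured cKO ventricles. Timp2b moves from 4.70 to 6.12 TPM up to 57.2 to 93.7 TPM and lies above timp2a in 2 of the 3 cryoinjured libraries, whereas ankrd1b stays at or below 0.262 TPM while ankrd1a rises.

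Enzymes that fold and crosslink collagen rose in 7 of 19 tested members (36.8%, against 6.92% of all genes), with a median of 0.59. Lox, a lysyl oxidase gene, went from 2.07, 0.582 and 0 CPM to 11.7, 10.7 and 14.0 CPM (log2 fold change 3.77, SE 0.86, adjusted p = 0.0113). The collagen chaperone gene serpinh1b went from 5.46, 5.11 and 4.93 CPM to 76.4, 44.3 and 29.5 CPM (log2 fold change 3.28, SE 0.38, adjusted p = 5.63e-05). Both were free of overlap, like nearly all called genes. Loxl2a and loxl2b, further crosslinking enzymes, rose by 2.44 (SE 0.63, adjusted p = 0.0223) and 1.86 (SE 0.38, adjusted p = 0.00537) on the log2 scale. Without uninjured replicate 2 the call of lox was lost, with adjusted p = 0.0517, and that of loxl2a was lost in 3 fits that left out 1 library, with adjusted p up to 0.0786 without cryoinjury replicate 2. Basement membrane genes moved little by count, with 2 of 20 rising (10%, where 6.92% of all genes did). Nid2a (nidogen), 1 of the 2, went from 6.29, 4.50 and 1.88 CPM to 16.9, 18.9 and 15.3 CPM.

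Matrix proteases and their inhibitors rose in 11 of 20 tested members (55%, against 6.92% of all genes), with a median of 1.31 and none falling. The collagenase gene mmp13b went from 0.0514, 0.0881 and 0.156 CPM to 2.1, 1.77 and 3.44 CPM (log2 fold change 4.62, SE 0.61, adjusted p = 0.000165). Gelatinase gene mmp9 went from 0.279, 0.229 and 0.203 CPM to 3.71, 3.74 and 3.58 CPM (log2 fold change 3.95, SE 0.63, adjusted p = 0.000842). In both genes the groups were several-fold apart and did not overlap, and nearly all called genes likewise showed no overlap. Adam8a, at 1.63, 0.449 and 1.63 CPM and then 44.9, 39.3 and 26.2 CPM, rose by 4.89 (SE 0.65, adjusted p = 0.00023) on the log2 scale.

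Macrophage genes rose in 10 of 30 tested members (33.3%, against 6.92% of all genes), with a median of 1.12, and none fell. Slc43a2b, an amino acid transporter gene, went from 5.85, 1.99 and 3.85 CPM to 31.0, 41.4 and 24.2 CPM (log2 fold change 3.04, SE 0.49, adjusted p = 0.00107). Progranulin gene grna.1 went from 53.1, 9.50 and 39.9 CPM to 175, 316 and 132 CPM (log2 fold change 2.60, SE 0.72, adjusted p = 0.0304). The myeloid master factor gene spi1b (ENSDARG00000000767) went from 5.92, 2.78 and 7.83 CPM to 19.1, 23.3 and 17.9 CPM (log2 fold change 1.87, SE 0.38, adjusted p = 0.00498). Cybb, the membrane subunit of the phagocyte oxidase, rose by 1.53 (SE 0.39, adjusted p = 0.0191). Perforin-like macrophage genes share the symbol MPEG1: ENSDARG00000055290 rose by 1.46 (SE 0.36, adjusted p = 0.016), ENSDARG00000043093 was at 1.37, 1.3 and 5.99 CPM and then 7.64, 7.16 and 4.62 CPM without a call, and 1 further gene was at 0. Macrophage markers summed to 56.8 to 168 CPM uninjured, 78.8 to 199 CPM after sham and 195 to 251 CPM after cryoinjury. Without cryoinjury replicate 2 or uninjured replicate 2 only 4 members were called, and without cryoinjury replicate 1 or 3 there were 6.

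Lipid handling and lysosome genes rose in 5 of 25 tested members (20%, against 6.92% of all genes), with a median of 0.31. Apoeb and apoc1, an apolipoprotein C gene, led: apoc1 went from 0.0734, 0.0529 and 0 CPM to 3.37, 7.82 and 7.46 CPM (log2 fold change 7.17, SE 1.22, adjusted p = 0.00266). Sham replicate 1 held 13.8 CPM of apoeb and 1.32 CPM of apoc1, more than the other sham libraries with at most 2.43 and 0.140 CPM. Of the pair of genes with the symbol NPC2, a cholesterol carrier of the lysosome, ENSDARG00000096979 went from 3.42, 2.19 and 2.91 CPM to 23.1, 34.9 and 30.3 CPM (log2 fold change 3.37, SE 0.32, adjusted p = 8.14e-06). The other, ENSDARG00000090912, rose by 0.65 (SE 0.13, adjusted p = 0.00475).

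Cathepsins and other lysosomal hydrolases rose in 9 of 21 tested members (42.9%, against 6.92% of all genes), with a median of 0.66. The cysteine protease gene ctsz went from 14.1, 11.5 and 15.6 CPM to 50.7, 57.7 and 37.2 CPM (log2 fold change 1.82, SE 0.28, adjusted p = 0.000531). Ctsk, the collagen-degrading cathepsin K, went from 54.0, 49.1 and 52.0 CPM to 115, 118 and 105 CPM (log2 fold change 1.13, SE 0.18, adjusted p = 0.000914). Both groups of libraries were tight and apart, though nearly all called genes showed no overlap. Macrophage markers moved in the same libraries, with the sums given above, and their part in the change of lysosomal genes was not tested. Leaving out cryoinjury replicate 2 or uninjured replicate 2 left 3 or 4 cathepsin calls.

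The neutrophil list rose in 3 of 15 tested members (20%, against 6.92% of all genes, median 1.15), but its defining markers did not. Lysozyme gene lyz was at 2.06, 0.943 and 4.50 CPM uninjured and 0.206, 0.788 and 1.16 CPM after cryoinjury, and npsn at 2.36, 1.55 and 4.99 CPM and then 0.502, 1.38 and 1.63 CPM, neither with a call. Members that rose included alox5ap, which serves leukotriene synthesis, and s100a10b, a partner of annexins that many cell types express.

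Acute cytokines and genes of Stat3 signalling rose in 6 of 31 tested members (19.4%, against 6.92% of all genes), with a median of 0.87. Interleukin-11, a ligand of the gp130 receptor family, has a pair of genes: il11a was at 0, 0.176 and 0 CPM uninjured and at 3.73, 1.39 and 1.22 CPM after injury (log2 fold change 5.21, SE 1.34, adjusted p = 0.0217). Il11b was listed at 0 in all uninjured and sham libraries and at 0.230, 0.432 and 0.111 CPM after cryoinjury. The leptin gene lepb, named with il11b after its values were seen, went from 0.0220, 0 and 0 CPM to 1.2, 1.75 and 1.04 CPM (log2 fold change 7.27, SE 1.18, adjusted p = 0.00096). Also called were csf1a, a macrophage growth factor, at 1.90, 1.08 and 0.0782 CPM and then 6.99, 9.18 and 13.1 CPM, the chemokine gene ccl35.1 and the prostaglandin synthase gene ptgs2a. Il1b was at 1.70, 0.582 and 2.21 CPM and then 1.72, 1.44 and 0.891 CPM, and tnfa did not exceed 0.254 CPM in any of the 6 libraries. Neither passed the test. Calls of il11a, csf1a, ccl35.1 and ptgs2a were lost in 3, 3, 4 and 6 of 6 such fits.

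No member was called in the lists of T and NK cells (19 tested), B cells and thrombocytes (13), antigen presentation (16) and red blood cells (15). Over all genes 10.6% were called, which in lists this short amounts to few genes, so the lack of calls says little. The T and NK list as a whole summed to only 18.2, 14.7 and 21.0 CPM uninjured and 14.2, 14.5 and 16.9 CPM after cryoinjury. Of 25 interferon response genes 1 rose, which is 4%, against 6.92% of all genes. At an unadjusted p under 0.05 by edgeR the first 4 of these lists held 0, 1, 3 and 1 genes, against 5224 of all 20462. DESeq2 called 0, 1, 1 and 0 in these lists.

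DNA replication genes rose in 24 of 42 tested members, and all 42 had a positive log2 fold change, with a median of 1.56. Over all 20462 genes tested, 6.92% rose and 10641 had a positive log2 fold change. Tk1, thymidine kinase, went from 3.34, 2.36 and 0.579 CPM to 4.72, 9.78 and 14.5 CPM (log2 fold change 2.21, SE 0.64, adjusted p = 0.0382). The replicative helicase gene mcm6 (ENSDARG00000057683) went from 25.5, 11.3 and 3.27 CPM to 38.9, 56.4 and 71.3 CPM (log2 fold change 2.05, SE 0.55, adjusted p = 0.0262). A further helicase subunit gene, mcm3, rose by 1.77 (SE 0.51, adjusted p = 0.0397) and chaf1a, which loads histones on new DNA, by 1.75 (SE 0.49, adjusted p = 0.0333). Pcna, the sliding clamp, named after its values were seen, went from 87.0, 51.2 and 33.2 CPM to 123, 129 and 185 CPM (log2 fold change 1.35, SE 0.29, adjusted p = 0.0062). Uninjured replicate 1 held the most of each of these genes in its group.

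Mitosis genes rose in 24 of 46 tested members (52.2%, against 6.92% of all genes). Again all 46 were positive (10641 of 20462 over all genes), with a median of 1.43. Mybl2b, a factor that drives late cell cycle genes, went from 6.82, 2.51 and 1.84 CPM to 12.4, 16.8 and 25.6 CPM (log2 fold change 2.29, SE 0.46, adjusted p = 0.0048). The spindle checkpoint effector gene cdc20 went from 2.18, 0.635 and 1.13 CPM to 5.79, 5.67 and 6.04 CPM (log2 fold change 2.15, SE 0.44, adjusted p = 0.00536). Survivin gene birc5a rose by 2.33 (SE 0.57, adjusted p = 0.016) and securin gene pttg1 by 1.99 (SE 0.50, adjusted p = 0.0167). Summed over the list, mitosis genes stood at 356.9, 126.2 and 110.3 CPM in uninjured replicates 1, 2 and 3, at 469.8, 476.6 and 577.8 CPM after cryoinjury and at 146.5, 209.5 and 169.8 CPM after sham. Uninjured replicate 1 thus lay nearest to the injured libraries, still below all 3 of them. Counts of calls moved with the model and with single libraries. With the uninjured and cryoinjured cKO groups fitted alone they were 3 for replication and 4 for mitosis, with all 9 cKO libraries 17 and 11, and by DESeq2 35 and 37. Without uninjured replicate 1 they were 37 for replication and 42 for mitosis, and without cryoinjury replicate 2, cryoinjury replicate 3, uninjured replicate 2 or uninjured replicate 3 they were 9, 4, 5 and 11 for replication and 7, 8, 4 and 6 for mitosis. Without cryoinjury replicate 1 mitosis had 11.

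Control ventricles, whose libraries are not shared with cKO, gave a median log2 fold change of 3.20 for the mitosis list and 2.39 for the replication list. Cdk1, the kinase that triggers mitosis and was chosen after its values were seen, was at 2.31, 2.22 and 1.48 CPM in uninjured and 26.5, 22.4 and 19.1 CPM in cryoinjured controls. In cKO it was at 14.8, 4.76 and 4.1 CPM and then 18.7, 18.6 and 22.5 CPM, so that the injured groups overlapped between arms while every uninjured cKO library exceeded every uninjured control. The log2 response of cdk1 was smaller in cKO by 2.17 in size (a difference of -2.17, unadjusted p = 0.000853, adjusted p = 0.175), which did not pass. Over the list the median difference of response, cKO minus control, was -1.66, against 0.01 over all genes tested. Of the 46 genes, measured in the same libraries and so not independent, 45 had a negative difference. None of these passed the test of the difference, and 34 had an unadjusted p under 0.05 by edgeR, while DESeq2 called 9. Without uninjured cKO replicate 1 the median difference was -0.86. All uninjured controls came from 1 lane and all cryoinjured controls from another, so lane and injury cannot be told apart in the control arm.

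**Figure D4:**
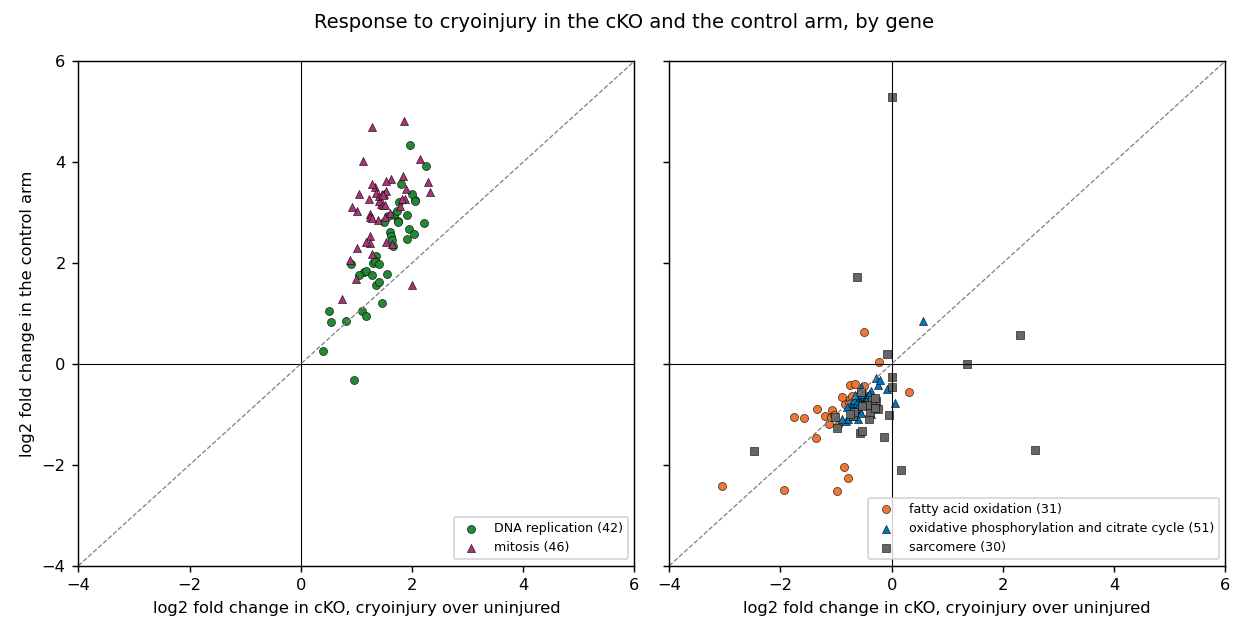
Log2 fold change of cryoinjury over uninjured in cKO (horizontal) against the control arm (vertical), one symbol per gene, for DNA replication and mitosis genes (left) and for fatty acid oxidation, oxidative phosphorylation and sarcomere genes (right), with a dashed line where both arms are equal. Most mitosis genes lie above the line, as their medians of 1.43 in cKO and 3.20 in control state.

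Cardiomyocyte contractile genes went the other way: of 30 tested sarcomere genes 8 fell and 1 rose, with a median of -0.38. These were 26.7% and 3.33%, against 3.69% and 6.92% of all genes. Lmod2a, a leiomodin that lengthens thin filaments, went from 110.0, 185 and 321 CPM to 44.9, 23.3 and 43.2 CPM (log2 fold change -2.47, SE 0.41, adjusted p = 0.00133). Nexilin gene nexn went from 555, 606 and 762 CPM to 367, 293 and 289.8 CPM (log2 fold change -1.02, SE 0.23, adjusted p = 0.00984). The M-band gene myom2a (ENSDARG00000075433) was at 1179, 1133 and 1088 CPM and then at 656, 519 and 543 CPM (log2 fold change -0.98, SE 0.14, adjusted p = 0.000322). In all 3 the cryoinjured libraries were below every uninjured one, and nearly all called genes likewise showed no overlap. The member that rose was tnnc1b, a troponin C gene, from 3.80, 8.61 and 6.2 CPM to 43.3, 35.7 and 13.5 CPM (log2 fold change 2.31, SE 0.51, adjusted p = 0.00919). The ventricular myosin gene myh7, named after its values were seen, was at 41628, 35037 and 33898 CPM and then at 29810, 21094 and 25467 CPM and did not pass (adjusted p = 0.0818). Marker sums of ventricular muscle moved with this list, as given above, and its part was not tested. Without cryoinjury replicate 2, cryoinjury replicate 3, uninjured replicate 1 or uninjured replicate 2, the count of 8 was 2, 3, 4 or 3.

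Calcium handling and excitation genes fell in 4 and rose in 2 of 25 tested members (median -0.47). These were 16% and 8%, where 3.69% of all genes fell and 6.92% rose. The calcium pump gene atp2a2a (ENSDARG00000029439) fell from 7291, 6552 and 6256 CPM to 4062, 2913 and 3443 CPM (log2 fold change -0.95, SE 0.18, adjusted p = 0.00368). Connexins moved in opposite directions. Gja3 went from 88.2, 76.1 and 94.1 CPM to 39.0, 29.1 and 32.6 CPM (log2 fold change -1.36, SE 0.35, adjusted p = 0.0216), while gja1b, the connexin 43 gene, went from 7.51, 4.27 and 4.28 CPM to 16.1, 19.2 and 13.9 CPM (log2 fold change 1.62, SE 0.26, adjusted p = 0.00102). Asph, a gene of the calcium release unit and of an aspartate hydroxylase, rose by 1.03 (SE 0.22, adjusted p = 0.00619). Gja1b and asph also passed the test against sham, with log2 fold changes of 1.57 (adjusted p = 0.0109) and 1.08 (adjusted p = 0.0254). The 4 calls lower fell to 1 without cryoinjury replicate 2 and to 2 without cryoinjury replicate 3.

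Genes of cardiomyocyte stress and dedifferentiation rose in 6 and fell in 1 of 30 tested members (median 0.28), so this list moved in part. These were 20% and 3.33%, against 6.92% and 3.69% of all genes. Beside ankrd1a, the actin-binding gene tagln went from 15.9, 12.2 and 10.4 CPM to 99.0, 133 and 129.8 CPM (log2 fold change 3.23, SE 0.33, adjusted p = 1.6e-05). Non-muscle myosin gene myh9a rose by 1.59 (SE 0.26, adjusted p = 0.00112) and the Yap target gene ccn2a by 1.37 (SE 0.36, adjusted p = 0.022). The natriuretic peptide gene nppa was at 2137, 3084 and 2627 CPM and then at 2364, 2663 and 2299 CPM, with overlap and no call. Its relative nppb was at 30.1, 243 and 39.6 CPM and then at 394, 371 and 251 CPM, where uninjured replicate 2 stood apart and the test was not passed (adjusted p = 0.285). Nppc, also named after its values were seen, went from 0.0294, 0 and 0 CPM to 2.38, 1.24 and 0.710 CPM (log2 fold change 7.01, SE 1.06, adjusted p = 0.000859). Of 28 cardiac transcription factor genes 1 fell, which is 3.57%, near the 3.69% of all genes tested. This was tbx5b, from 15.1, 19.3 and 24.0 CPM to 9.53, 8.48 and 9.05 CPM (log2 fold change -1.11, SE 0.23, adjusted p = 0.00525). Gata4 was at 14.6, 20.2 and 16.5 CPM and then at 17.9, 14.5 and 13.6 CPM, with overlap.

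Fatty acid oxidation, the main fuel route of the adult heart, fell in 19 of 31 tested genes, the highest share of decreases of any list. This share was 61.3%, against 3.69% of all genes. The median was -0.83 and 30 of 31 members were negative, as were 9793 of all 20462 genes tested. Mlycd, which clears the brake malonyl-CoA, went from 36.2, 38.4 and 23.8 CPM to 5.96, 9.50 and 10.3 CPM (log2 fold change -1.93, SE 0.43, adjusted p = 0.00902). The mitochondrial uncoupling protein gene ucp3 went from 17.5, 33.2 and 37.9 CPM to 5.81, 11.5 and 9.03 CPM (log2 fold change -1.75, SE 0.54, adjusted p = 0.0485). Carnitine palmitoyltransferase gene cpt1ab (ENSDARG00000062054), the entry step for fatty acids into mitochondria, was at 309, 437 and 587 CPM and then at 154, 149.6 and 141 CPM (log2 fold change -1.58, SE 0.25, adjusted p = 0.000747). Very-long-chain dehydrogenase gene acadvl fell from 1639, 1865 and 2134 CPM to 947, 559 and 683 CPM (log2 fold change -1.36, SE 0.26, adjusted p = 0.00363). No uninjured library overlapped a cryoinjured one in these 4 genes, as in nearly all called genes. Sham libraries held 306, 299 and 388 CPM of cpt1ab, and against sham cpt1ab passed with a log2 fold change of -1.16 (adjusted p = 0.033). Counts were 11, 8, 11 and 10 without cryoinjury replicate 1, 2 or 3 or uninjured replicate 2, and the call of ucp3 was lost in 5 of 6 such fits.

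Nuclear genes of oxidative phosphorylation and the citrate cycle fell in 15 of 51 tested members (29.4%, against 3.69% of all genes), with a median of -0.56. Of the 51, 49 were negative, as were 9793 of all 20462 genes tested. Idh2, mitochondrial isocitrate dehydrogenase, went from 2640, 2729 and 2724 CPM to 1475, 1398 and 1514 CPM (log2 fold change -0.88, SE 0.15, adjusted p = 0.00114). Citrate synthase gene cs went from 1345, 1444 and 1189 CPM to 805, 704 and 812 CPM (log2 fold change -0.78, SE 0.16, adjusted p = 0.00533). Succinate dehydrogenase genes sdha and sdhb fell by 0.82 (SE 0.21, adjusted p = 0.0201) and 0.79 (SE 0.19, adjusted p = 0.0124) on the log2 scale. The count was 2 without cryoinjury replicate 2, 9 and 8 without replicate 1 and 3 of that group, 6 and 5 without uninjured replicate 1 and 2, and 45 by limma-voom with sample weights. Glycolytic genes fell in 6 of 35 (17.1%, against 3.69% of all genes), with a median of -0.46. Among them was gapdh, from 12151, 15166 and 18356 CPM to 9056, 6909 and 9723 CPM (log2 fold change -0.83, SE 0.25, adjusted p = 0.0408). The lactate dehydrogenase B gene ldhba fell from 4698, 4383 and 3897 CPM to 2678, 2023 and 2432 CPM (log2 fold change -0.86, SE 0.19, adjusted p = 0.00772), and the lactate exporter gene slc16a3b by 1.3 (SE 0.28, adjusted p = 0.00671) on the log2 scale. Without cryoinjury replicate 2 only 1 of these 6 glycolysis calls was made, and without cryoinjury replicate 3 or uninjured replicate 2 there were 3.

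Of 59 tested ligand and receptor genes 12 rose (20.3%, where 6.92% of all genes did), with a list median of 0.59. A further 3 fell, 5.08% of the list, near the 3.69% of all genes. Midkine gene mdka (ENSDARG00000036036, chr7:39166460-39178198), a heparin-binding growth factor, rose from 52.9, 46.6 and 51.0 CPM to 665, 673 and 556 CPM. Its log2 fold change of 3.65 had an SE of 0.22 (adjusted p = 2.22e-07), and sham libraries held 215, 258 and 229 CPM. The chemokine gene cxcl12a, which guides coronary vessels, went from 9.06, 7.65 and 10.1 CPM to 37.6, 41.9 and 40.8 CPM (log2 fold change 2.16, SE 0.25, adjusted p = 4.39e-05). The epidermal growth factor receptor ligand gene hbegfb rose by 2.72 (SE 0.57, adjusted p = 0.0059) and kitlga, the ligand of Kit, by 2.31 (SE 0.35, adjusted p = 0.000481). The 3 that fell were vegfab, an endothelial growth factor, the vessel peptide gene apln and bmp10, a ligand of endocardium and muscle. Vegfab was at 455, 480.2 and 247 CPM and then at 262, 158 and 144 CPM, with overlap (log2 fold change -1.07, SE 0.30, adjusted p = 0.0332). Calls of vegfab, apln and bmp10 were lost in 4, 5 and 4 such fits, each without 1 library. Nrg1, a mitogen of cardiomyocytes named after its values were seen, was at 0.756, 0 and 0.133 CPM and then at 0.980, 0.669 and 0.836 CPM, without a call.

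Annexins and S100 proteins, which bind membranes in a calcium-dependent way and take part in membrane repair, rose in 8 of 18 tested members (median 0.96). This was 44.4%, against 6.92% of all genes. Anxa2a (ENSDARG00000003216) went from 103, 59.0 and 40.0 CPM to 809, 973 and 905 CPM (log2 fold change 3.74, SE 0.38, adjusted p = 1.85e-05). The S100 gene icn went from 28.2, 25.8 and 27.36 CPM to 119, 152 and 149.8 CPM (log2 fold change 2.37, SE 0.18, adjusted p = 1.16e-06). Anxa1a rose by 2.35 (SE 0.25, adjusted p = 2.05e-05) and s100a10a by 2.24 (SE 0.47, adjusted p = 0.00705). Sham libraries held 447, 295 and 242 CPM of anxa2a, between the other groups. Of s100a10a they held 14.4, 16.2 and 16.0 CPM, among the cryoinjured libraries at 11.5, 15.0 and 21.1 CPM. Its log2 fold change against sham was 0.03 (adjusted p = 0.99). With both groups fitted alone the call of s100a10a against uninjured was lost (adjusted p = 0.0558). Against sham 3 of the 18 members were called, where 1.46% of all genes tested were.

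Endothelial and endocardial genes were called near the background share, 2 of 32 higher and 2 lower (median -0.14). Stab2, a scavenger receptor for hyaluronan, went from 2.44, 1.53 and 3.17 CPM to 15.3, 9.62 and 5.65 CPM (log2 fold change 2.1, SE 0.51, adjusted p = 0.0157). The Notch target gene hey2, also active in ventricular muscle, went from 21.6, 22.5 and 23.7 CPM to 11.5, 7.91 and 9.85 CPM (log2 fold change -1.21, SE 0.30, adjusted p = 0.0151). The vessel cadherin gene cdh5 was at 324, 347 and 305 CPM and then at 255, 264 and 279.7 CPM without a call. Fits without 1 library called 0 to 4 members of this list higher and 0 to 2 lower, so these calls hung on single libraries. Against 6.92% higher and 3.69% lower over all genes, mural cell genes rose in 3 of 20 (15%) and fell in 1 (5%). They were tagln, acta2 and mylka, contractile genes that other cells also use, and abcc9, a potassium channel subunit that heart muscle also expresses, which fell from 329, 323 and 296 CPM to 213, 139 and 179 CPM (log2 fold change -0.84, SE 0.16, adjusted p = 0.00405).

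Shares near or little above the background of 6.92% were seen in 4 more lists. They were AP-1 and immediate-early genes (2 of 31 higher), cytosolic ribosome (3 of 38), chaperones (3 of 34) and proteasome (3 of 32), with no decrease. Of the AP-1 genes, fosl2 went from 6.44, 9.09 and 1.54 CPM to 28.2, 32.4 and 26.9 CPM (log2 fold change 2.36, SE 0.55, adjusted p = 0.0136) and fosl1b rose as well (log2 fold change 1.81, SE 0.34, adjusted p = 0.00312). Genes that mark neighbouring or distant tissue gave 1 call each, in short lists that say little beside 6.92% higher and 3.69% lower over all genes. Higher were nppal of the atrium (1 of 4 tested), with replicates of 6.63, 14.6 and 0.355 CPM after injury, and fbln1 of the bulbus arteriosus (1 of 4). Also higher were tfa of the liver (1 of 5) and mbpb of Schwann cells (1 of 12), while ckma of skeletal muscle (1 of 11) was lower. Calls of fbln1, nppal and mbpb were lost in 6, 5 and 5 of 6 fits without 1 library, and in further settings, with adjusted p up to 0.0515, 0.662 and 0.14. Tfa, which encodes the iron carrier transferrin, was at 63.3, 62.5 and 129.6 CPM uninjured, 301, 365 and 315 CPM after sham and 352, 410.1 and 504 CPM after cryoinjury (log2 fold change 2.31, SE 0.38, adjusted p = 0.00131), with the liver marker fabp10a at 0. Ckma, a creatine kinase gene that heart muscle also expresses, was at 4475, 4978 and 4500 CPM and then at 2828, 2359 and 3011 CPM.

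Clock genes changed in both directions, 6 of 37 tested higher and 11 lower after cryoinjury than in uninjured ventricles (median -0.32). These were 16.2% and 29.7%, against 6.92% and 3.69% of all genes. The circadian clock is a feedback loop in which Bmal1 and Clock switch on Per, Cry and Rev-erb genes, whose products shut the loop off, and zebrafish tissues hold it locally and set it by light. Among genes that rose, the repressor ciarta went from 9.23, 2.04 and 1.34 CPM to 25.8, 42.4 and 48.6 CPM (log2 fold change 3.21, SE 0.58, adjusted p = 0.00269). Per1a, named after its values were seen, went from 12.6, 2.79 and 2.34 CPM to 30.5, 44.8 and 43.4 CPM (log2 fold change 2.75, SE 0.53, adjusted p = 0.00416). Rev-erb alpha gene nr1d1 rose by 2.5 (SE 0.43, adjusted p = 0.0018).

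Opposite to these, both Bmal1 genes fell, bmal1a from 24.2, 28.9 and 40.6 CPM to 8.67, 6.41 and 6.42 CPM (log2 fold change -2.12, SE 0.42, adjusted p = 0.00475) and bmal1b from 7.13, 15.4 and 19.8 CPM to 3.02, 2.13 and 2.23 CPM (log2 fold change -2.52, SE 0.47, adjusted p = 0.00319). The Rev-erb related genes nr1d4b and nr1d4a fell as well, nr1d4b from 0.565, 5.90 and 13.9 CPM to 0.363, 0.297 and 0.0836 CPM (log2 fold change -4.77, SE 0.99, adjusted p = 0.00599). Uninjured replicates 1, 2 and 3 spread widely and in 1 pattern: replicate 3 was highest and replicate 1 lowest for rorcb, nfil3-5, nr1d4a, nr1d4b, bmal1a and bmal1b, and replicate 1 was highest for per1a, per1b, per3, cry2, ciarta and nr1d1. Sham libraries did not stand with the uninjured ones. They held 34.4, 54.1 and 66.8 CPM of per1a and 42.6, 79.3 and 84.9 CPM of nr1d1. Between cryoinjury and sham edgeR called 0 of the 37 genes, near the 1.46% of all genes tested, so this count says little about the list. At an unadjusted p under 0.05 by edgeR there were 2, against 3184 of all 20462 genes, and DESeq2 called 1. The labels give a cycle of light and dark but no hour of collection, which was not tested. Calls higher fell from 6 to 3 without cryoinjury replicate 1, 2 or 3 or uninjured replicate 2 or 3, and calls lower stayed between 8 and 14 over all settings tried.

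**Figure D5:**
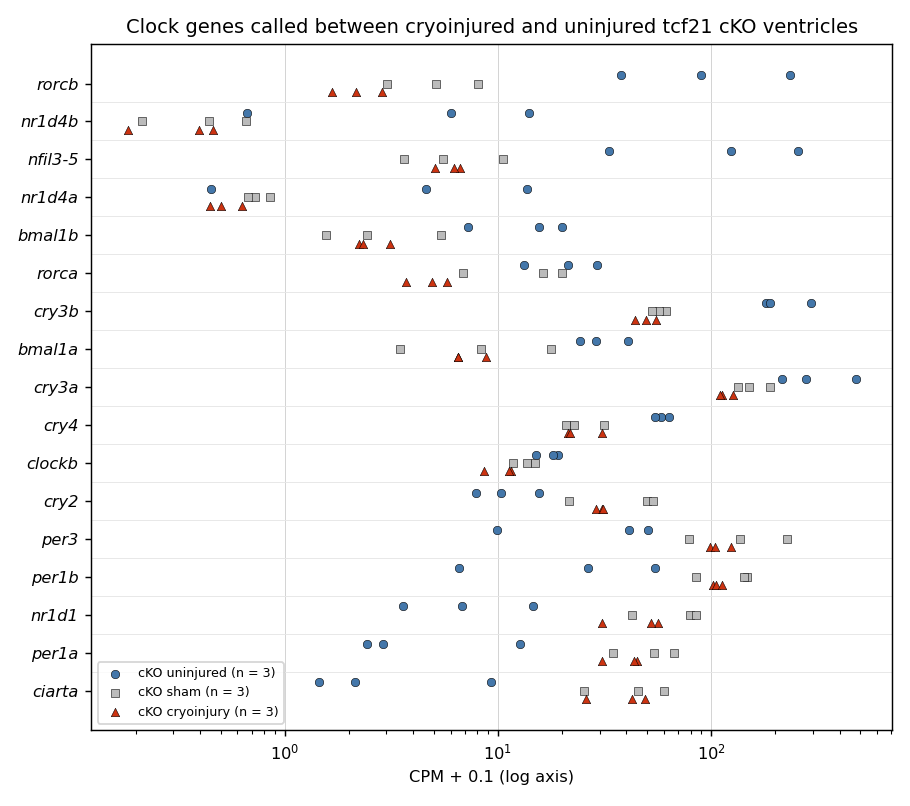
Levels of the 17 clock genes called between cryoinjured and uninjured cKO ventricles, in CPM plus 0.1 on a log axis, one symbol per library, with sham libraries beside them. Sham symbols lie with the cryoinjured ones for most genes, as for per1a at 34.4 to 66.8 CPM after sham and 30.5 to 44.8 CPM after cryoinjury.

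The control arm gives the same contrast in other libraries. Of the 1415 genes that rose in cKO, 1384 (97.8%) had the same sign in control, as had 730 (96.6%) of the 756 that fell, where 71.1% of all genes tested had. Their median log2 fold changes in control were 1.62 and -0.71. A test of the difference between the arms called 5 genes, 0.0244% of those tested, and 2289 genes had an unadjusted p under 0.05. Plaua, a plasminogen activator gene, rose in both arms and less in cKO: it went from 1.28, 0.608 and 1.23 CPM to 5.97, 7.25 and 5.68 CPM in cKO and from 0.0763, 0.207 and 0.0466 CPM to 13.3, 6.63 and 15.7 CPM in control. The difference in log2 response, cKO minus control, was -4.13 (SE 0.64, adjusted p = 0.0404). For the progenitor factor gene sox4b it was -2.16 (SE 0.32, adjusted p = 0.0383), with 13.04, 18.5 and 18.9 CPM and then 15.1, 20.7 and 17.3 CPM in cKO, and 5.13, 5.02 and 8.75 CPM and then 26.0, 30.3 and 32.3 CPM in control. The groups of sox4b overlapped in cKO and stood apart in control.

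Differences with a positive sign belonged to pmp22b and limd1a. Pmp22b, a membrane protein gene, was at 135, 163 and 83.4 CPM and then at 210.0, 206 and 263 CPM in cKO, and at 409, 206 and 366 CPM and then at 112, 104 and 120 CPM in control (difference 2.38, SE 0.37, adjusted p = 0.0404). Limd1a, a LIM protein gene, was at 11.4, 15.1 and 11.3 CPM and then at 13.8, 11.1 and 13.4 CPM in cKO, and at 20.7, 14.8 and 17.2 CPM and then at 6.79, 6.61 and 6.08 CPM in control (difference 1.46, SE 0.24, adjusted p = 0.0457). The remaining gene, zmp:0000000608, was listed at 0 in all uninjured controls. With lane as a covariate or with the groups of the contrast fitted alone, none of the 5 was called by edgeR. The differences stayed of similar size, but this adds no support to them. Fitting the groups alone keeps their libraries and so nearly fixes each difference. The lane term could be estimated only from the control sham group, with 2 libraries in lane 2 and 1 in lane 4. With lane the differences were -4.22 for plaua, -2.27 for sox4b, 2.00 for pmp22b, 1.49 for limd1a and -9.02 for zmp:0000000608, with adjusted p of 0.556 to 0.702. With the groups alone they were -4.13, -2.16, 2.38, 1.46 and -8.42 in the same order, with adjusted p of 0.195 to 0.223.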

How the data were processed

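Poly(A) RNA of pooled ventricles was sequenced in 18 libraries. The authors' deposited table gives estimated counts per gene as whole numbers, 1 count standing for 75 aligned bases, per the file headers from StringTie 2.1.1 with Ensembl 109 genes of GRCz11. HISAT2 2.1.0, Trim Galore 0.6.10 and FastQC 0.11.9 are named in the submitters' processing notes. TPM values were read as text attributes of the authors' deposited StringTie files, 1 per library. Totals of the 18 libraries ran from 107256750 to 191085931 counts.

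Genes were filtered with edgeR's filterByExpr, which left 20462, and scaled by TMM. All 18 libraries entered 1 edgeR (4.0.16, R 4.3.3) quasi-likelihood fit with a mean for each of 6 groups and no covariate, called at adjusted p under 0.05, and log2 fold changes are those of that fit. CPM are TMM-scaled. The fit was tested on simulated data. Exact permutation tests served single values per library. Alternatives were DESeq2 (1.42.0), its size factors, no filter, lane, the replicate block, fewer groups, limma-voom with sample weights, a fold threshold and leaving out each library.

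Members and gene lists were chosen with earlier results of these data known. Named genes are tcf21, the 12 largest increases and decreases that passed the test, had 5 CPM or more on average and no overlap of groups and a lower-case symbol with no clone prefix, the 4 largest gains and losses in CPM under the same conditions, up to 4 called members per list with at least 1 CPM, and up to 3 called genes per direction of the difference between arms. Any other named gene, such as a defining marker, a relative of a named gene or a further list member, was chosen after its values were seen. Of 25107 genes 23499 had a symbol. Marker symbols that matched no gene were not analysed here. Some genes are not reported here.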

Additional observations from a re-analysis of the deposited data

Results flagged for a closer look

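For 5 genes the response to cryoinjury differed between cKO and control ventricles by the test of the difference itself, in edgeR with Benjamini-Hochberg adjustment. The log2 response, cKO minus control, was -8.43 for zmp:0000000608 (ENSDARG00000041221), -4.13 for plaua, -2.16 for sox4b, 2.38 for pmp22b and 1.46 for limd1a. The value of zmp:0000000608 is no bound on a fold, because all uninjured controls were at 0. It stood at 0.198, 0.132 and 0.399 CPM uninjured and 1.54, 1.14 and 0.940 CPM after cryoinjury in cKO, and reached 2.45, 0.877 and 0.933 CPM after cryoinjury in control. Of 12 fits that each left out 1 library, the call was lost in 4 for zmp:0000000608, 5 for plaua, 6 for sox4b, 6 for pmp22b and 7 for limd1a.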

How the results depend on the processing

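For cryoinjury against uninjured cKO ventricles, 2171 genes in the reported fit became 3410 with DESeq2's Wald test, 3620 with limma-voom and sample weights (chosen after seeing the data) and 1266 when an absolute log2 fold change above 1 was also required. Leaving out 1 library gave 930 to 2240. The difference between the arms, 5 genes, became 330 with DESeq2's Wald test and 0 both with lane as a covariate and with the groups of the contrast fitted alone, and leaving out 1 library gave 0 to 121, the highest without uninjured cKO replicate 1. Cryoinjury against sham, 298 genes, became 191 with only the 9 cKO libraries (chosen after seeing the data), 175 with lane, 1129 with DESeq2's Wald test and 1671 with both groups alone, and leaving out 1 library gave 18 to 115. The labels do not say whether replicate numbers pair the libraries. Deviations from the group mean, over all genes tested, correlated at 0.0343, 0.0008 and 0.0622 between same-numbered uninjured and cryoinjured libraries. Such low values over all genes cannot exclude a pairing that touches some genes. With the replicate block the counts were 2629, 6 and 505. DESeq2's size factors and no filter on low counts moved none of the 3 counts by more than 1.5 times.

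Of 133 named genes called, 49 lost the call in at least 1 fit without a library, most often without cryoinjury replicate 2 (43 genes), and 35 in at least 1 other setting, 26 of them with both groups alone. None of them changed direction in these fits. Nearly all called genes had no overlap between the groups, so a change of direction was hardly possible. The cause of the lost calls was not tested. In simulated data with 3 libraries a group, 34 of 100 genes changed by 1 on the log2 scale were called. Of 100 changed by 2, 82 were called, both in the contrast of cryoinjury with uninjured. Smaller changes were thus often missed in that simulation. It changed 200 of 20462 genes, where 10.6% were called in the real contrast. It also gave all groups the same spread for each gene. In the real data the biological coefficient of variation was 0.575 in uninjured and 0.272 in cryoinjured cKO libraries. Its rates therefore need not hold here.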

Other observations

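Glucocorticoid target genes, which overlap the clock list in per1a, were called higher in 3 and lower in 1 of 18 tested members after cryoinjury in cKO ventricles. These were 16.7% and 5.56%, against 6.92% and 3.69% of all genes. The median log2 fold change of the list was -0.02 in cKO and -1.004 in control. None of the 18 was called in the test of the difference between arms by edgeR, and 8 had an unadjusted p under 0.05, while DESeq2 called 1.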
